A study of Mus musculus with 18 samples.

Results

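Mice were given ethanol (EtOH) or served as controls, and RNA from the caput epididymidis was sequenced at 10 weeks or after a cessation period. The question here is whether the difference between 10% EtOH and control mice was the same at both times. It was measured as an interaction: the 10% EtOH effect after cessation (10% EtOH-Cessation against Control-Cessation) minus the 10% EtOH effect at 10 weeks (10% EtOH against Control). The contrast used 12 of the 18 libraries of the series, chosen by their treatment labels, with 3 libraries in each of 4 groups, and was computed for all 18078 genes with enough counts to test, of 53819 entries. All 4 groups were caput tissue of C57BL/6J mice, an inbred strain, with no allele or other agent named. The series title gives the cessation as 1 month. The sources used here do not give the route of the ethanol, the age of the mice or the length of treatment before cessation. Each library carries its own identifier, and 10% EtOH 10 weeks replicate 3 carries one of a different form from the rest of its group. No label says that each identifier is 1 animal, so the tests use the spread between libraries, which may be technical.

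The caput is the first region of the epididymis, the coiled duct in which sperm leaving the testis mature. Its principal cells secrete antioxidant enzymes, lipocalins and defensins into the lumen and shed vesicles that carry RNA to sperm. Basal cells, clear cells and mononuclear phagocytes share the epithelium, and vessels, smooth muscle and fibroblasts surround it. Ethanol is oxidised to acetaldehyde and then acetate, largely by alcohol and aldehyde dehydrogenases.

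The 12 libraries held 12903045 to 21067237 counts, with at least 99.7% in tested genes. Gpx5, the secreted glutathione peroxidase that marks caput principal cells, made up 1.97% to 4.64% of the counts of every library. The spread between replicates differed by group: the biological coefficient of variation was 11.7% in Control 10 weeks, 22.9% in 10% EtOH 10 weeks, 34.8% in Control cessation and 27.4% in 10% EtOH cessation. On the first principal component, which held 33.4% of the variance, Control cessation replicates 1 and 3 scored 56.6 and 85.4, whereas Control cessation replicate 2 scored -20.5. The 6 libraries of the 10-week groups scored between -44.7 and -14.4. The 3 libraries of 10% EtOH cessation scored -27.4, 28.9 and 47.0. The largest within-group split in the data therefore lay in one of the 4 groups that define the contrast, and for most of the lists described below the median is also given without single libraries. Time, age and day of processing cannot be told apart between the 10-week and cessation groups.

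No gene passed an adjusted p of 0.05 for the difference between the times (0 of 18078, percent called 0; edgeR quasi-likelihood test with Benjamini-Hochberg adjustment). The smallest adjusted p was 0.304, for Tchh. The unadjusted p was under 0.05 for 1164 genes, 6.44% of those tested, where 904 would be expected of a uniform p. Of them, 525 (2.90%) lay above 0, meaning that 10% EtOH against control stood higher after cessation than at 10 weeks, and 639 (3.53%) lay below 0. Whatever their p, 9857 genes (54.5%) lay below 0, with a median log2 difference of -0.05 against a median standard error of 0.38. DESeq2 called 3 genes (Tchh, Tchhl1 and Fn1), limma-voom called 0, and limma-voom with library weights called 3 (Tchh, H2-T23 and the predicted gene Gm48865).

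The comparisons behind the contrast share no library. Neither had a gene past the adjusted threshold (0 at 10 weeks, percent called 0; 0 after cessation, percent called 0). The 10-week comparison had 2306 genes (12.8%) at an unadjusted p under 0.05, with 1317 higher and 989 lower in 10% EtOH. The cessation comparison had 1169 (6.47%), with 313 higher and 856 lower. Across all genes, 10190 of 18078 (56.4%) had the same sign at both times, and among the 2306 genes of the 10-week comparison 1531 (66.4%) did. The log2 effects at both times had a Pearson r of 0.15 and a Spearman rho of 0.15 across the 18078 genes, which are not independent points and share libraries within each time. The plot of both effects shows a round cloud of genes around 0.

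**Figure D1:**
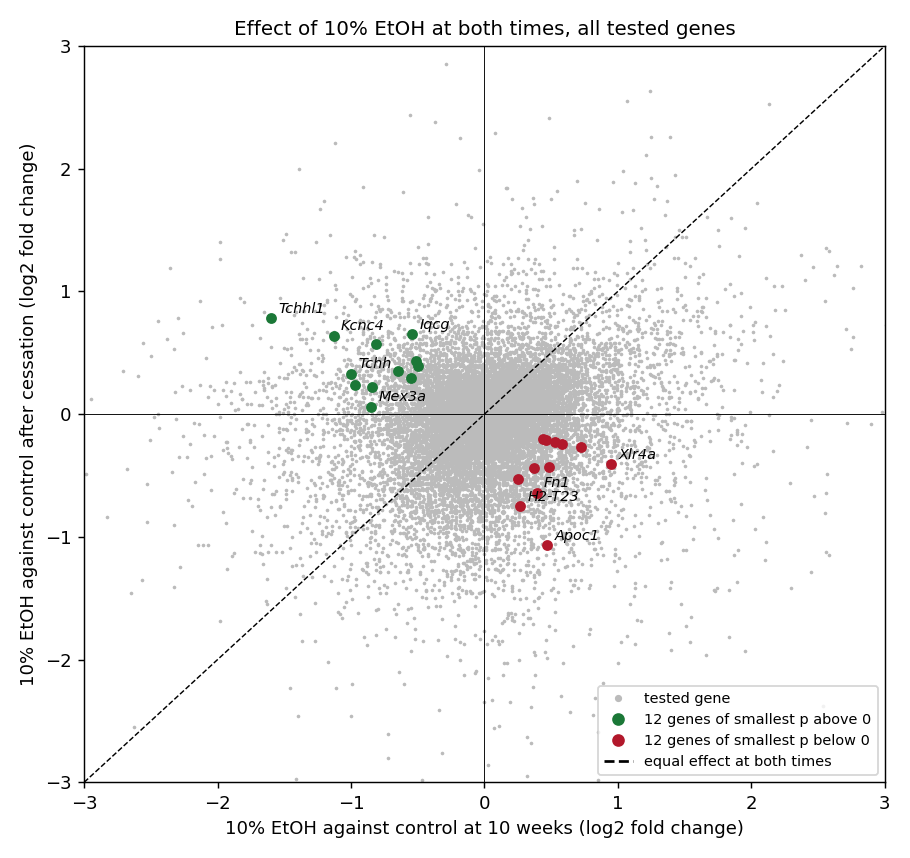
Log2 fold change of 10% EtOH against control at 10 weeks (x axis) and after cessation (y axis) for the tested genes, as grey points, with 39 genes outside the axes. Green and red points are the 12 named genes above and the 12 below 0; they were chosen by the p of their difference and lie away from the dashed line of equal effect, on which the difference between the times is 0.

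Separation of the groups at both times in opposite directions was rare. All 3 libraries of 10% EtOH lay below all 3 controls at 10 weeks and above all 3 after cessation for 47 genes (0.260%), and the reverse held for 70 genes (0.387%). The groups were separated in the same direction at both times for 176 genes (0.974%). Separation was more common at 10 weeks (5650 genes, 31.3%) than after cessation (1161 genes, 6.42%), where the controls spread most. The 24 genes described next are the 12 of smallest p on each side of 0, named whether or not they passed a threshold, and 15 of them belong to these crossing sets. A small p for the difference favours such a crossing, so in these genes it is not separate evidence. The same holds for list members named by their p.

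On the upper side, the leading genes were an adjacent pair of the epidermal differentiation region of chromosome 3. Tchh encodes trichohyalin, a structural protein of hair follicles and other keratinising epithelia. Its level in CPM (counts scaled to a common library size) was 26.9, 27.7 and 29.3 in Control and 16, 14 and 11.8 in 10% EtOH at 10 weeks. After cessation it was 21.9, 18.7 and 23.8 in Control and 27.4, 28 and 25.3 in 10% EtOH. The groups did not overlap at either time, and the order of the groups turned over. The log2 effect of 10% EtOH was -1.0 ± 0.15 (SE) at 10 weeks and 0.33 ± 0.14 after cessation, a difference of 1.33 ± 0.20 (unadjusted p = 1.68e-05, adjusted p = 0.304, edgeR). DESeq2 gave Tchh an adjusted p of 1.31e-05, and leaving out each library in turn moved the difference between 1.24 and 1.46.

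Tchhl1, trichohyalin-like 1, is the neighbour of Tchh in the genome. It was at 3.71, 4.66 and 4.50 CPM in Control and 1.61, 1.68 and 0.942 CPM in 10% EtOH at 10 weeks. After cessation it was at 1.29, 1.20 and 1.87 CPM in Control and 2.42, 3.24 and 1.81 CPM in 10% EtOH. The 10-week groups were separated, while after cessation the highest control lay just above the lowest 10% EtOH library. The difference was 2.38 ± 0.50 on the log2 scale (edgeR, unadjusted p = 3.61e-04, adjusted p = 0.752), and the controls themselves stood 1.56 lower on that scale after cessation than at 10 weeks (log2 -1.56). All 23 named genes other than Tchh had this same adjusted p of 0.752.

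Fam171a1, a membrane protein gene, had values of 47.1, 42.0 and 49.0 CPM in Control and 31.4, 35.2 and 21.5 CPM in 10% EtOH at 10 weeks. After cessation these were 38.1, 32.0 and 32.3 CPM in Control and 44.1, 43.7 and 42.4 CPM in 10% EtOH. As for Tchh, the groups were separated at both times and in opposite directions, with a log2 difference of 1.0 ± 0.23. Nebl (nebulette, an actin-binding protein), Iqcg (a ciliary and flagellar IQ-motif protein), Fbxl18 (an F-box protein of ubiquitin ligases) and Elf5 (an epithelial ETS transcription factor) showed the same crossing, with log2 differences of 0.88, 1.18, 0.93 and 1.38. Nebl rested on 29.9, 27.1 and 40.2 CPM against 26.4, 21.0 and 21.4 CPM at 10 weeks, and on 28.4, 31.3 and 29.8 CPM against 40.7, 37.6 and 38.8 CPM after cessation.

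The other genes on the upper side were separated at 10 weeks and overlapped after cessation. Kcnc4, a voltage-gated potassium channel subunit, had a log2 effect of -1.13 at 10 weeks and 0.64 after cessation, where 1 of the 10% EtOH libraries (15.1 CPM) lay within the controls (13.5 to 17.1 CPM). Gnao1, a G protein alpha subunit, stood at -0.97 and 0.24. Iqsec1, an exchange factor for ARF GTPases, stood at -0.84 and 0.22. Mex3a, an RNA-binding protein, stood at -0.85 and 0.06, so that its difference of 0.91 lay almost wholly in the 10-week groups. Zfp316, a zinc finger protein, had a difference of 0.84.

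**Figure D2:**
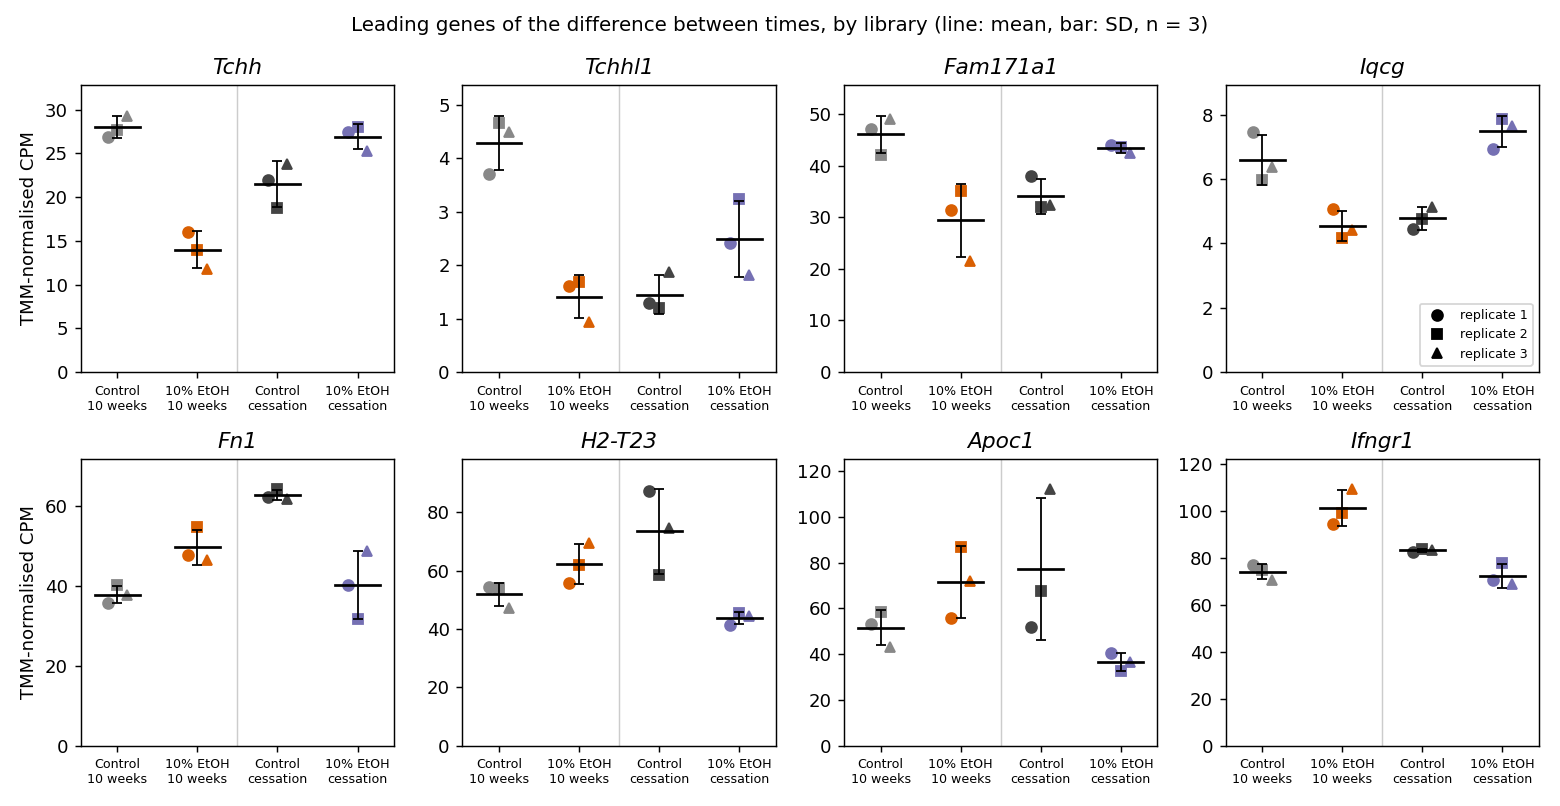
TMM-normalised CPM of 8 named genes in each of the 12 libraries (x axis, 4 groups of 3), with the group mean as a line and the SD as a bar. The upper row holds genes whose difference lay above 0 and the lower row genes whose difference lay below 0; Tchh lay in 10% EtOH libraries at 11.8 to 16 CPM at 10 weeks and at 25.3 to 28 CPM after cessation.

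On the lower side, the gene of smallest p was Fn1, which encodes fibronectin, a matrix glycoprotein bound by integrins. It was at 35.7, 40.2 and 37.6 CPM in Control and 47.7, 54.7 and 46.4 CPM in 10% EtOH at 10 weeks. After cessation it was at 62.3, 64.1 and 61.8 CPM in Control and 40.2, 31.6 and 48.7 CPM in 10% EtOH. The groups were separated at both times in opposite directions. The log2 effect was 0.39 ± 0.15 at 10 weeks and -0.64 ± 0.15 after cessation, a difference of -1.03 ± 0.21 (edgeR, unadjusted p = 2.12e-04, adjusted p = 0.752; DESeq2 adjusted p = 0.0345). The 3 cessation controls of Fn1 lay within 2.3 CPM of each other, although replicate 2 scored far below replicates 1 and 3 on the first component.

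H2-T23, next on the lower side, encodes Qa-1, a non-classical class I molecule that presents peptides to receptors of natural killer and T cells. It was at 54.4, 54.1 and 47.3 CPM in Control and 55.8, 62.0 and 69.5 CPM in 10% EtOH at 10 weeks, and at 87.1, 58.5 and 74.6 CPM in Control and 41.5, 45.4 and 44.5 CPM in 10% EtOH after cessation. Its groups too were separated at both times, with a log2 difference of -1.01 ± 0.21 (edgeR, unadjusted p = 2.86e-04, adjusted p = 0.752). Limma-voom with library weights gave -1.07 and an adjusted p of 0.0422. Its weights for Control cessation replicates 1, 2 and 3 were 3.77, 0.268 and 0.335, so the lowest control of H2-T23 counted least there. Ifngr1, the ligand-binding chain of the interferon gamma receptor, was at 76.9, 74.7 and 70.7 CPM against 94.1, 98.9 and 109 CPM at 10 weeks, and at 82.5, 83.8 and 83.2 CPM against 70.3, 77.8 and 68.6 CPM after cessation. This is a crossing of modest size (log2 difference -0.65 ± 0.15) in a gene whose replicates lay close together. Itga6, a laminin-binding integrin of basal cells, and Fcgr2b, the inhibitory receptor for IgG, crossed in the same way, with log2 differences of -0.91 and -0.77.

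The remaining genes of the lower 12 follow. Apoc1, an apolipoprotein of triglyceride-rich particles, was at 53.2, 58.4 and 43.1 CPM in Control and 55.8, 87.0 and 71.9 CPM in 10% EtOH at 10 weeks. In the cessation groups it was at 52.0, 67.5 and 112 CPM in Control and 40.6, 32.5 and 36.8 CPM in 10% EtOH. Only the cessation groups were separated, and the log2 difference was -1.54 ± 0.35. Por, the reductase that feeds electrons to microsomal cytochromes P450, was at 112, 116 and 115 CPM against 122, 138 and 150 CPM at 10 weeks and at 148, 126 and 151 CPM against 108, 89.6 and 96.2 CPM after cessation, and was separated at both times (log2 difference -0.78 ± 0.18). Npc1, which exports cholesterol from late endosomes, Abhd5, the co-activator of adipose triglyceride lipase, and Acsl3, which activates long-chain fatty acids at lipid droplets, had log2 differences of -0.67, -0.82 and -0.83. Abcg2, an efflux transporter, had one of -0.99, and Xlr4a, an X-linked lymphocyte-regulated family member, one of -1.36. The Xlr4 and class I families hold near-identical copies, so the assignment of reads to Xlr4a and H2-T23 is uncertain.

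For 5 of these 24 genes (Tchhl1, Zfp316, Fbxl18, Fn1 and Xlr4a) the controls differed between the times by more than the 10% EtOH groups did. In controls, Fn1 stood 0.73 higher on the log2 scale after cessation than at 10 weeks, and Xlr4a 0.89 higher. No gene passed the adjusted threshold for control cessation against control at 10 weeks (percent called 0; smallest adjusted p 0.0551, edgeR), and 3526 had an unadjusted p under 0.05. These are the same control libraries as in the difference itself. The 6% EtOH groups, compared in the same way, share all 6 controls with these differences, so nothing is read from a shared sign. Their log2 differences for the 12 upper genes ran from 0.10 (Elf5) to 1.32 (Tchhl1), beside 0.84 to 2.38 at 10% EtOH, and for the 12 lower genes from -0.90 (Xlr4a) to -0.29 (Ifngr1), beside -1.54 to -0.65.

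Gene lists were described next by the number of their members on each side of 0 and by their median, beside the median of all genes (-0.05) and the 54.5% of genes below 0. Counts of list members at an unadjusted p under 0.05 (edgeR) are to be set beside the shares of all genes. These shares were 3.53% below 0 and 2.90% above 0. Of 41 lists, 36 had a median below 0. No member of any list passed the adjusted threshold in the edgeR fit with the filter on low counts. The lists with the lowest medians were endothelium (-1.33), interferon response (-1.25), inflammatory cytokines and chemokines (-1.13), and macrophages and monocytes (-1.02). In bulk RNA, fewer cells of a type and less RNA per cell cannot be told apart.

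**Figure D3:**
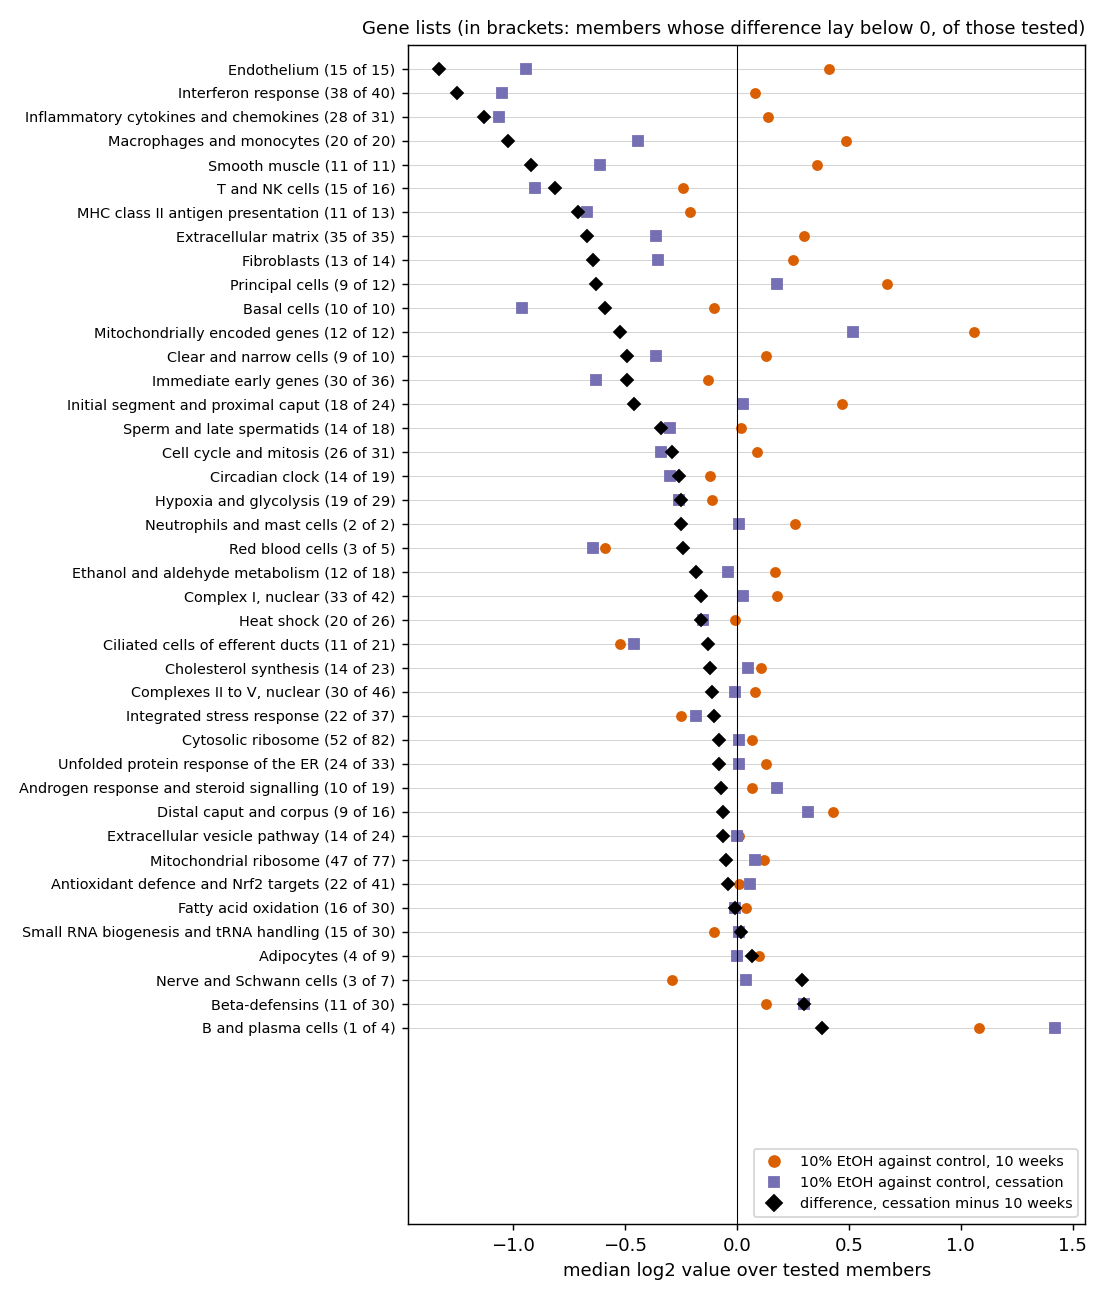
Median log2 value over the tested members of 41 gene lists (rows) for 10% EtOH against control at 10 weeks (circles) and after cessation (squares), and for the difference between them (diamonds). The endothelium, interferon, inflammatory and macrophage lists lie at the top, with differences between -1.33 and -1.02, and 5 lists lie above 0.

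The interferon list holds genes that type I and type II interferons induce through factors that bind elements in their promoters. The promoter windows of 3 genes from RefSeq (assembly GRCm38.p6, 250 bases before to 50 after the start, gene strand, here from the minus strand) show the letters searched in capitals. The search was for GAAANNGAAA, the core of the interferon-stimulated response element, on both strands. They are Rsad2 at chr12:26456403-26456702, Isg15 at chr4:156200769-156201068 and H2-T23 at chr17:36032652-36032951, shown because Rsad2 and Isg15 have the smallest p of the list and H2-T23 is a leading gene above. These coordinates are of another build than the counts, which were made on GRCm39.
Rsad2: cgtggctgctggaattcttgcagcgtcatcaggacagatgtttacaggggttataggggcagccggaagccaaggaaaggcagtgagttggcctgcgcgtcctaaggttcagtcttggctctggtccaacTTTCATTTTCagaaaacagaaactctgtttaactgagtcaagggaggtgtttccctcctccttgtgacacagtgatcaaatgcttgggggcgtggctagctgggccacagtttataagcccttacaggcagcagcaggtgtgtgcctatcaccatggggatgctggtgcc
Isg15: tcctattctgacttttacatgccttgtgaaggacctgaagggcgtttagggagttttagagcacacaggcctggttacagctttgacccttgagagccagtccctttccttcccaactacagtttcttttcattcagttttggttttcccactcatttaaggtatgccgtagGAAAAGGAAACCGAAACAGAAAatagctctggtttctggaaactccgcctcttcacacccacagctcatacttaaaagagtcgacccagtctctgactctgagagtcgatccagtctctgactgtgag
H2-T23: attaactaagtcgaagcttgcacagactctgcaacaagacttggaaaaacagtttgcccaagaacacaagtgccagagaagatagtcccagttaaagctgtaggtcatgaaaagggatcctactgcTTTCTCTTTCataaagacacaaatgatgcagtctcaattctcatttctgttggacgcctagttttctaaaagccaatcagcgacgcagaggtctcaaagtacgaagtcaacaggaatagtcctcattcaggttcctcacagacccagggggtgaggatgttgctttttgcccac
The core was present in the window of 17 of the 30 list genes with an entry (56.7%), against 3.99% of the 27025 genes in the table and 3.68% of the 12601 tested genes with an entry. The list was made of known interferon targets, so this share describes the list and not its values. The capitals in Isg15 span 3 overlapping matches, and a match describes letters only.

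Of the 40 interferon genes tested, 38 lay below 0 and 12 (30.0%) had an unadjusted p under 0.05 below 0, where the share of all genes was 3.53%. The median log2 effect of 10% EtOH was 0.08 at 10 weeks and -1.05 after cessation. Rsad2, the antiviral enzyme viperin, was at 2.34, 1.85 and 1.77 CPM in Control and 3.77, 3.35 and 4.59 CPM in 10% EtOH at 10 weeks. In the cessation groups it was at 8.37, 1.80 and 12.6 CPM in Control and 2.36, 3.31 and 2.96 CPM in 10% EtOH. The 10-week groups were separated, and Control cessation replicate 2 lay below every 10% EtOH library while the other 2 controls lay above them. The log2 difference was -2.37 ± 0.71 (unadjusted p = 0.00500, adjusted p = 0.752, edgeR).

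In Isg15, Bst2 and Ifi27, too, Control cessation replicate 2 lay within the range of the 10% EtOH libraries and the other 2 controls above it. Isg15, a ubiquitin-like modifier, had cessation controls at 12.5, 3.79 and 10.9 CPM and 10% EtOH at 3.41, 5.44 and 5.35 CPM, and a log2 difference of -1.68 ± 0.54. Bst2 (tetherin, which holds budding virions at the membrane) had cessation controls at 24.0, 9.73 and 21.3 CPM against 7.92, 9.85 and 7.88 CPM, and Ifi27 was at 21.9, 6.13 and 23.2 CPM against 5.96, 8.46 and 10.9 CPM. The Ifit, Gbp and Irg members of the list have close paralogs, so their single values are uncertain. Irf9 (0.08) and Oas2 (0.44) were the members above 0.

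The level of the whole list in each library shows which libraries were high. Averaged over members and centred on the 12 libraries, the log2 level was 1.65, -0.62 and 1.01 in the cessation controls. It lay between -0.65 and 0.03 in the other 9 libraries, 10% EtOH cessation included (-0.48, -0.07 and -0.05). Control cessation replicates 1 and 3 thus stood apart. The list median of -1.25, with 12 members at an unadjusted p under 0.05 below 0 (edgeR), moved without replicate 1 or 2 and little without replicate 3. Without Control cessation replicate 1 the median was -0.61 with 4 members at an unadjusted p under 0.05 below 0 (2.71% of all genes in that fit). Without replicate 2 it was -1.61 with 35 members (7.52% of all genes), and without replicate 3 it was -1.29 with 12 members (4.19%).

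The inflammatory list (cytokines, chemokines and the adhesion molecules they induce) had 28 of 31 members below 0 and 2 (6.45%) at an unadjusted p under 0.05 below 0. Its median effect was 0.14 at 10 weeks and -1.06 after cessation. Cxcl1, a neutrophil-attracting chemokine, was at most 0.530 CPM in the 10-week libraries, at 9.24, 1.98 and 20.0 CPM in the cessation controls, and at 1.31, 4.12 and 4.27 CPM in 10% EtOH cessation. Cxcl16, a chemokine and scavenger receptor, was at 18.8, 8.53 and 37.3 CPM in the cessation controls and 7.47, 9.78 and 9.76 CPM in 10% EtOH cessation. The endothelial adhesion molecules Vcam1 and Icam1 had log2 differences of -1.30 and -1.50, with cessation controls at 39.3, 12.5 and 55.8 CPM for Vcam1. In each of these 4 genes Control cessation replicates 1 and 3 were the highest 2 of the 12 libraries. The list median of -1.13 was -0.66 without Control cessation replicate 3 and -1.54 without replicate 2. Saa1, Saa3, Cxcl5 and Ccl19 were too low to test.

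Immediate early genes, which are transcribed soon after a stimulus, had 30 of 36 members below 0. Their median difference of -0.49 became 0.04 without Control cessation replicate 3, with 18 of 36 members below 0, and -0.81 without Control cessation replicate 2. Their level stood higher in all 6 cessation libraries (centred log2 0.09 to 2.15) than in all 6 libraries of 10 weeks (-1.16 to -0.46), and highest in Control cessation replicate 3. Fos went the other way from its list. It was at 1.68, 2.30 and 22.1 CPM in Control and 1.51, 0.671 and 2.0 CPM in 10% EtOH at 10 weeks, and at 58.1, 40.1 and 120 CPM in Control and 112, 70.8 and 87.2 CPM in 10% EtOH after cessation, so that its difference of 2.91 ± 1.18 rests on 1 control library of 10 weeks. Klf6 was at 144, 85.1 and 367 CPM in cessation controls against 73.7, 121 and 85.4 CPM, a difference of -1.59 ± 0.58.

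**Figure D4:**
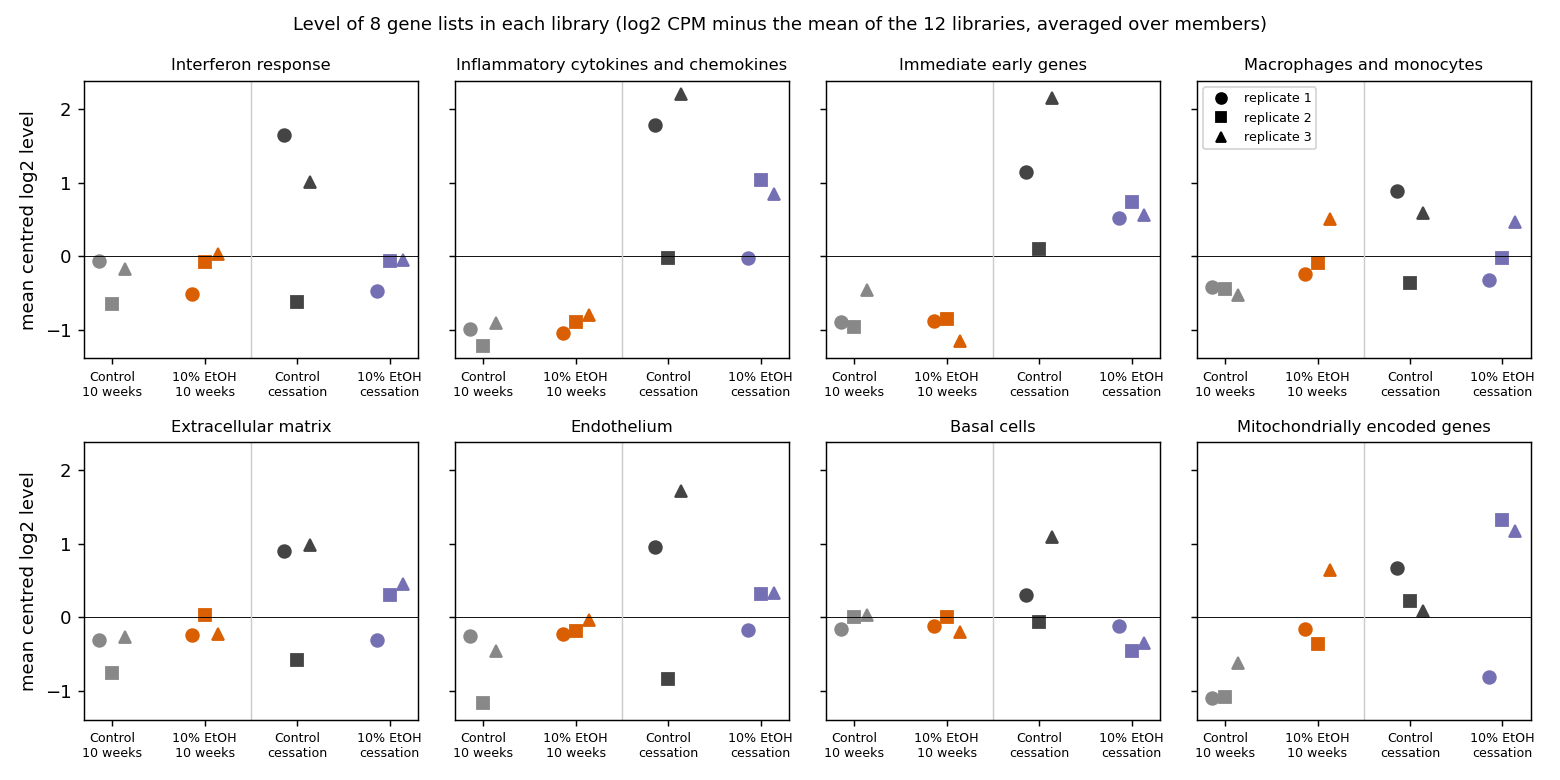
Level of 8 gene lists in each of the 12 libraries, as log2 CPM centred on the mean of the 12 libraries and averaged over tested members (y axis), by group (x axis) and replicate (marker shape). Control cessation replicates 1 and 3 stand at 0.88 to 1.79 and 0.59 to 2.21 in the interferon, inflammatory, macrophage, matrix and endothelium panels, with Control cessation replicate 2 at -0.83 to -0.02.

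Macrophage and monocyte markers lay below 0 in 20 of 20, with 5 (25.0%) at an unadjusted p under 0.05. Their median log2 effect of 10% EtOH was 0.49 at 10 weeks and -0.44 after cessation. Lyz2, lysozyme, was at 36.7, 31.9 and 29.7 CPM in Control and 46.5, 73.5 and 62.1 CPM in 10% EtOH at 10 weeks. After cessation it was at 141, 52.5 and 97.0 CPM in Control and 43.3, 56.8 and 92.8 CPM in 10% EtOH. The 10-week groups were separated and the cessation groups overlapped, with a log2 difference of -1.48 ± 0.47. Ctss, the protease cathepsin S, had a difference of -1.13, Cd14, a co-receptor for lipopolysaccharide, -1.99, and Mpeg1, a pore-forming protein of phagocytes, -1.01. The list median was -0.63 without 10% EtOH 10 weeks replicate 3, its highest library at that time, and -0.68 without Control cessation replicate 1. It was -1.25 without Control cessation replicate 2.

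Markers of other immune cells were fewer at testable levels. MHC class II genes had 11 of 13 below 0 with a median of -0.71, and T and NK cell markers 15 of 16 with a median of -0.81, with 0 members of the latter at an unadjusted p under 0.05 on either side. Without Control cessation replicate 1 these medians were -0.34 and -0.30, and without Control cessation replicate 2 they were -0.90 and -1.11. B and plasma cells had 4 testable markers of 11, and neutrophils and mast cells 2 of 11, with S100a8 and S100a9 too low to test. H2-DMa, which helps load peptides on class II molecules, was at 26.8, 24.2 and 18.9 CPM in cessation controls and 17.9, 15.8 and 14.8 CPM in 10% EtOH, and its difference of -0.69 ± 0.22 did not follow the split of the cessation controls.

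The extracellular matrix list lay below 0 in 35 of 35 members, with 6 (17.1%) at an unadjusted p under 0.05 and a median of -0.67. Its median effect was 0.30 at 10 weeks and -0.36 after cessation. After Fn1, the smallest p values were those of Lamc1 and Lamb2, laminin chains of basement membranes. Lamc1 was at 71.0, 64.6 and 69.6 CPM in Control and 77.0, 85.5 and 90.1 CPM in 10% EtOH at 10 weeks, and at 95.9, 71.6 and 85.9 CPM in Control and 60.1, 67.2 and 63.5 CPM in 10% EtOH after cessation. Its groups were separated at both times in opposite directions, with a difference of -0.71 ± 0.18. Sparc, a collagen-binding matrix protein, was instead at 436, 188 and 608 CPM in cessation controls, and so followed the split of those libraries, as did the list level (0.91, -0.58 and 0.99). The list median was -0.50 without Control cessation replicate 1, -0.98 without replicate 2 and -0.39 without replicate 3.

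Vascular and stromal markers were arranged alike. All 15 endothelial markers lay below 0, 2 of them (13.3%) at an unadjusted p under 0.05, with a median of 0.41 at 10 weeks and -0.94 after cessation. Cdh5, the cadherin of endothelial junctions, was at 35.5, 8.47 and 51.3 CPM in cessation controls and 12.8, 18.1 and 14.2 CPM in 10% EtOH. Cldn5, an endothelial claudin, Flt1 and Pecam1 had differences of -1.90, -1.63 and -1.66. The endothelial median was -0.67 without Control cessation replicate 3 and -1.72 without replicate 2. Smooth muscle markers lay below 0 in 11 of 11 (median -0.92, 0 at an unadjusted p under 0.05) and fibroblast markers in 13 of 14 (median -0.64). With each library left out, the smooth muscle median ran from -1.36 to -0.62 and the fibroblast median from -0.94 to -0.44.

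Among epithelial cells, basal cell markers lay below 0 in 10 of 10. Of these, 3 (30.0%, beside 3.53% of all genes) reached an unadjusted p under 0.05: Itga6, Cldn1, a tight junction claudin, and Krt17, a keratin of stressed and basal epithelium. Cldn1 was at 54.2, 63.2 and 58.4 CPM in Control and 79.8, 72.5 and 119 CPM in 10% EtOH at 10 weeks, and at 71.4, 79.1 and 99.4 CPM in Control and 59.1, 73.7 and 52.5 CPM in 10% EtOH after cessation. It was separated at 10 weeks, overlapped in 1 library after cessation, and had a difference of -1.06 ± 0.27. Trp63, the transcription factor that defines basal cells, differed by -0.30 ± 0.18. Krt17 was at 27.2 CPM in Control cessation replicate 3 and at 2.45 to 6.49 CPM in the other 11 libraries, and without that replicate the list median of -0.59 became -0.21. It was -0.34 without 10% EtOH cessation replicate 2, -0.38 without 10% EtOH 10 weeks replicate 2 and -0.82 without Control cessation replicate 2.

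Clear and narrow cell markers, which include subunits of the proton pump that acidifies the lumen, lay below 0 in 9 of 10. Of these, 3 (30.0%) had an unadjusted p under 0.05. The list median of -0.49 ran from -0.57 to -0.35 with each library left out. Slc26a3, an anion exchanger, was at 17.4, 13.4 and 20.2 CPM against 20.0, 19.1 and 26.6 CPM at 10 weeks and at 35.3, 22.0 and 39.0 CPM against 19.3, 27.1 and 19.0 CPM after cessation. Of the 3 cessation controls, 2 lay above all 10% EtOH libraries, and the difference was -0.92 ± 0.33.

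Principal cell markers had a median difference of -0.63, with 9 of 12 below 0 and 0 at an unadjusted p under 0.05. Their effect was 0.67 at 10 weeks and 0.18 after cessation, so the sign of the median was shared and its size was not. Crisp1, a secreted protein that coats sperm, was at 432, 515 and 314 CPM against 806, 786 and 1510 CPM at 10 weeks and at 588, 962 and 200 CPM against 573, 847 and 774 CPM after cessation. Gpx5 differed by -0.07 ± 0.46. The summed principal cell level was lowest in Control cessation replicate 3 (41300 CPM, against 70800 to 121000 CPM in the other 11 libraries). Without that library the list median was -0.95, with 8 members at an unadjusted p under 0.05 below 0 (4.19% of all genes in that fit), and without Control cessation replicate 2 it was -0.24. The initial segment list, genes of the most proximal caput, had a median of 0.47 at 10 weeks and 0.03 after cessation. Its difference of -0.46 was -0.20 without Control cessation replicate 2, and where the tissue was cut was not recorded in the sources used here.

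Beta-defensins, antimicrobial peptides that bind sperm, were among the 5 lists with a median above 0 (0.30). Of 30 tested, 19 lay above 0 and 1, Defb1, had an unadjusted p under 0.05, on the lower side (-0.87). The direction turned under 1 alternative: limma-voom with library weights gave a median of -0.12 with 18 of 30 below 0, and leaving out each library gave medians from 0.07 (without 10% EtOH cessation replicate 3) to 0.56 (without 10% EtOH 10 weeks replicate 2), with 0.11 without 10% EtOH 10 weeks replicate 3 and 0.50 without replicate 1. Defb41 was at 347, 413 and 511 CPM against 1100, 1300 and 2730 CPM at 10 weeks and at 1500, 1260 and 482 CPM against 580, 2860 and 1690 CPM after cessation. The clear separation at 10 weeks was not present after cessation, where both groups spanned a wide range, and the difference was -1.35 ± 0.77 (unadjusted p = 0.106, edgeR).

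Mitochondrial genes are named in the series title. All 12 tested genes of the mitochondrial genome lay below 0, with a median difference of -0.52 and 0 at an unadjusted p under 0.05. Their median effect was 1.06 at 10 weeks and 0.52 after cessation, higher in 10% EtOH at both. mt-Co1, the catalytic subunit of cytochrome oxidase, was at 3360, 3150 and 4860 CPM in Control and 6260, 5580 and 11200 CPM in 10% EtOH at 10 weeks. In the cessation groups it was at 11900, 8670 and 8320 CPM in Control and 4390, 19000 and 17100 CPM in 10% EtOH. The groups were separated at 10 weeks only, and 10% EtOH cessation replicate 1 lay below every cessation control. The median difference was -0.07 without that library, -0.13 without 10% EtOH 10 weeks replicate 3 and -0.90 without 10% EtOH cessation replicate 2, so its size moved with several single libraries.

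Nuclear genes of respiration had smaller differences. Complex I subunits lay below 0 in 33 of 42 with a median of -0.16 (0.18 at 10 weeks, 0.03 after cessation, and -0.21 to -0.06 with each library left out), and the subunits of complexes II to V in 30 of 46 with a median of -0.11 (-0.18 to -0.01 with each library left out). Ndufb1, an accessory subunit of complex I, was at 46.8, 43.5 and 38.7 CPM against 67.5, 71.3 and 68.9 CPM at 10 weeks and at 64.2, 67.4 and 60.0 CPM against 58.0, 80.4 and 68.0 CPM after cessation. It was separated at 10 weeks and overlapped after cessation, with a difference of -0.58 ± 0.19. Mitochondrial ribosome genes had a median of -0.05 and fatty acid oxidation genes one of -0.01, the same as or close to that of all genes.

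Ethanol and aldehyde metabolism had 12 of 18 members below 0, a median of -0.18 (-0.23 to -0.08 with each library left out) and 0 members at an unadjusted p under 0.05. Aldh2, the mitochondrial enzyme that clears acetaldehyde, differed by -0.02 ± 0.25, Adh5 by 0.15 ± 0.20, and Aldh1a1 by -0.27 ± 0.23. Antioxidant genes had a median of -0.04 (-0.12 to 0.05 with each library left out), with 3 of 41 (7.32%) at an unadjusted p under 0.05 below 0, where the share of all genes was 3.53%. They were Hmox1, Gpx4 and Prdx1. Gpx4, which reduces lipid peroxides, had a difference of -0.60 ± 0.21. Prdx1, a peroxiredoxin, was at 472, 520 and 476 CPM against 671, 678 and 891 CPM at 10 weeks and at 610, 626 and 508 CPM against 563, 690 and 567 CPM after cessation. It was separated at 10 weeks and overlapped after cessation, with a difference of -0.55 ± 0.23.

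Small RNA biogenesis and the vesicle pathway bear on the RNA that sperm acquire in the caput. The small RNA list had 15 of 30 members below 0 and a median of 0.02 (-0.02 to 0.10 with each library left out), with 2 members above 0 and 1 below 0 at an unadjusted p under 0.05. Dicer1, which cuts microRNA precursors, was at 127, 121 and 124 CPM against 115, 108 and 112 CPM at 10 weeks and at 97.7, 110 and 77.8 CPM against 121, 119 and 114 CPM after cessation. Its groups were separated at both times and in opposite directions, with a difference of 0.46 ± 0.18 (unadjusted p = 0.0228, edgeR). Ago1, an Argonaute, differed by 0.59 ± 0.21, and Rnase4, a secreted ribonuclease, by -0.94 ± 0.34. The vesicle list had 14 of 24 members below 0 and a median of -0.06 (-0.13 to 0.03 with each library left out). Of the 24, 3 (12.5%) had an unadjusted p under 0.05 below 0: Cd9, Flot1 and Cd63. The tetraspanin Cd9 was at 201, 204 and 174 CPM against 238, 266 and 296 CPM at 10 weeks and 168, 226 and 182 CPM against 180, 174 and 150 CPM after cessation.

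Base composition also varied between libraries along the groups. The level of a gene relative to the other libraries had a Spearman rho with gene GC content of 0.26 to 0.38 in the 3 controls of 10 weeks, and of -0.46 to 0.18 in the other 9 libraries. The difference between the times had a rho of 0.13 with GC across 17825 genes (98.6% of those tested), and 9 of the 12 named genes above 0 but 4 of the 12 below 0 had a GC content above the median. With trends on GC and length removed from each library, the count of genes past the adjusted threshold was still 0, the adjusted p of Tchh was 0.117 (edgeR), and the mitochondrial median was -0.27. In that fit 50.3% of genes lay below 0, beside 54.5% without the removal. The named genes and the list medians were refitted there too, and are among the alternatives counted in the last section. Base composition as a cause of the differences was not tested.

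Because the replicates of the cessation controls spread most, the call is given here without each of their libraries. Without Control cessation replicate 1 or 3, edgeR called 0 genes. Without replicate 2 it called 4, all below 0: Hmox1, the heme-degrading oxygenase (-3.45, adjusted p = 0.0100), Rsad2 (-2.80, adjusted p = 0.0299), the lectin Lgals3 (-2.30, adjusted p = 0.0158) and the class I gene H2-Q4 (-1.92, adjusted p = 0.0158). Hmox1 was at 37.7, 5.17 and 83.2 CPM in the 3 cessation controls and at 4.44 to 8.01 CPM in the other 9 libraries, so for this gene the library left out is the control that lay within the range of the other groups. That fit gave 2512 genes at an unadjusted p under 0.05, 7.52% of its tested genes below 0, with 13 of 15 endothelial, 16 of 20 macrophage and 26 of 35 matrix genes among them. Among the cessation controls, the level of each of these lists was lowest in replicate 2, as was that of Rsad2. Leaving it out therefore favours small p values in these genes, and the counts are not separate evidence.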

How the data were processed

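Per the submitters' processing notes, reads were trimmed with Trimmomatic, aligned with STAR and counted with featureCounts on GRCm39 (mm39). The sources used here do not give versions, annotation, strand or treatment of multi-mapping reads, so near-identical copies and overlapping genes are uncertain. The deposited values are raw counts per gene, 1 table per library, joined by gene symbol (1442 entries carry an Ensembl ID). Genes were kept with edgeR's filterByExpr by group (minimum count 10, minimum total 15). Counts were scaled by TMM and tested in one fit of 12 libraries with edgeR 4.0.16 (robust quasi-likelihood, 1 term per group, two-sided, Benjamini-Hochberg adjustment over all tested genes), in R 4.3.3. CPM values are TMM-normalised. The scripts were tested on simulated data. Alternatives were DESeq2 1.42.0, limma-voom 3.58.1 with and without library weights, other scaling and filters, all 18 libraries, each library left out, and GC and length trends removed, the last chosen after seeing the data. The named genes are the 12 of smallest p on each side with a symbol and log2 CPM averaging at least 1, and up to 4 members of each list by the same order. Genes outside that rule (among them Gpx5, Trp63, Aldh2, Adh5, Lgals3, H2-Q4, Irf9, Oas2 and mt-Co1) were added for their role or after their values were seen. The members and lists were chosen with earlier results of these data known.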

Additional observations from a re-analysis of the deposited data

How the results depend on the processing

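For the difference between the times, the count of genes past the adjusted threshold was 0 with edgeR and 0 with RLE scaling, a stricter filter, limma-voom, all 18 libraries or GC and length trends removed. It was 359 without a filter on low counts. Of these genes, 354 were also tested with the filter, among them 14 of the interferon list. The count was 3 with DESeq2 and 3 with limma-voom and library weights, and 0 to 4 when each library was left out, 4 being without Control cessation replicate 2. For 10% EtOH against control at 10 weeks it was 0, and 709 without a filter, 19 with DESeq2, 1177 with library weights, and 0 to 0 with each library left out. For 10% EtOH against control after cessation it was 0, and 373 without a filter, 29 with library weights, and 0 to 463 with each library left out, 463 being without Control cessation replicate 2. For control cessation against control 10 weeks it was 0, and 4 with RLE scaling, 1649 without a filter, 625 with DESeq2, 7244 with library weights, 22 with all 18 libraries, 4 with GC and length trends removed, and 0 to 2714 with each library left out, 2714 being without Control cessation replicate 2. The cause was not tested. All 480 values of the 24 named genes over 20 alternatives kept their direction. These genes were chosen by their small p in the same libraries, so a kept direction was close to given. Of 820 list medians, 775 moved by less than the spread within groups. That spread can be as large as the median itself. For immediate early genes it was 0.54, and the move of their median from -0.49 to 0.04 counted as smaller. No paired analysis was possible because the labels carry no replicate numbers shared between groups. With 3 libraries a group and a median standard error of 0.38, even large differences could stay short of the adjusted threshold. Tchhl1, with a log2 difference of 2.38 ± 0.50, had an adjusted p of 0.752 (edgeR). The absence of called genes therefore does not show that the effect was the same at both times.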
